A study of Drosophila melanogaster with 2 samples.

Results

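The genes described here are 10 regulators of embryonic segmentation, the gap genes hb, Kr, kni, gt, tll and hkb and the pair-rule genes run, odd, opa and h. They were chosen by symbol, out of 13968 protein-coding genes of Drosophila melanogaster on the 7 chromosomes and chromosome arms used. All 10 were found in Ensembl release 115 (assembly BDGP6, the coordinates of dm6), where h carries the symbol hry, which RefSeq lists as the gene with the synonym h. A summit, the position of highest signal within a peak, was assigned to a gene when it lay in the gene body or within 10 kb of a transcription start site (TSS). That region is called the locus below.

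The data are chromatin immunoprecipitation sequencing (ChIP-seq) peak lists from whole embryos of both sexes at 6 to 22 hours. The flies came from a transgenic line, B-H2-GFP, whose B-H2, a Bar homeodomain protein, is tagged at the C terminus with green fluorescent protein; the labels do not say what drives the fusion. There was this 1 group, with biological replicates 1 and 3, and no second condition. The labels give B-H2 as the antibody target, yet the free-text description, the same for each sample, speaks of an input control, and this conflict was not resolved. The peaks are named here as the lists give them. Each replicate list and the pooled list of both replicates held 30000 peaks, and the authors' list after the threshold on irreproducible discovery rate (IDR, which scores the agreement of peak ranks between replicates) held 4277. The IDR peaks are the 4277 of highest signal in the pooled list. Peak signal is the value the authors' caller gave and is used to rank peaks within a list, with rank 1 the strongest. The lists give no read counts, so depth is unknown. In whole embryos a strong signal in few cells and a weak signal in many cannot be told apart.

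Gap genes encode transcription factors that are made in broad domains of the blastoderm embryo and define its regions. Pair-rule genes turn these domains into periodic stripes. Both act mainly before the hours sampled here, and many of them are used again later, in the nervous system, gut, trachea or mesoderm. B-H2 is a homeodomain protein known for roles in the eye, in external sense organs and in neurons.

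None of the 10 genes had an IDR summit in its locus, while 57.9% of all protein-coding genes had one. A count of 0 of 10 genes allows a share of up to 30.0% (3 counts of 10), which covers counting error only and is no test for genes chosen as a set. Within 1 kb of a TSS the count was also 0 of 10, and the share of all protein-coding genes was 26.9%. The 10 loci held 25 pooled summits and none of these 25 was an IDR peak. In the whole pooled list 14.3% of peaks were IDR peaks. The members' median was 0.5 pooled summits per locus, against 6 for all protein-coding genes. For IDR summits the medians were 0 and 1. No test was made of these differences, since the members were chosen as a set with results of these data known and there is no second group of samples.

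The 10 genes fell into 3 kinds of locus. At 5 of them, kni, gt, tll, run and opa, there was no pooled summit at all, while 13.0% of all protein-coding genes had none. Another 4 had few, with 1 at hb, 1 at hkb, 3 at odd and 4 at Kr. The last gene, h, had 16, or 11 with overlapping peaks merged, and 6.08% of protein-coding genes had 16 or more unmerged. So 64.0% of the pooled summits in the 10 loci lay at 1 gene. All 10 loci together held 1.16 pooled summits per 10 kb, and the density over the chromosomes was 2.18. Outside h, a split chosen after seeing the data, it was 0.462 per 10 kb.

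**Figure D1:**
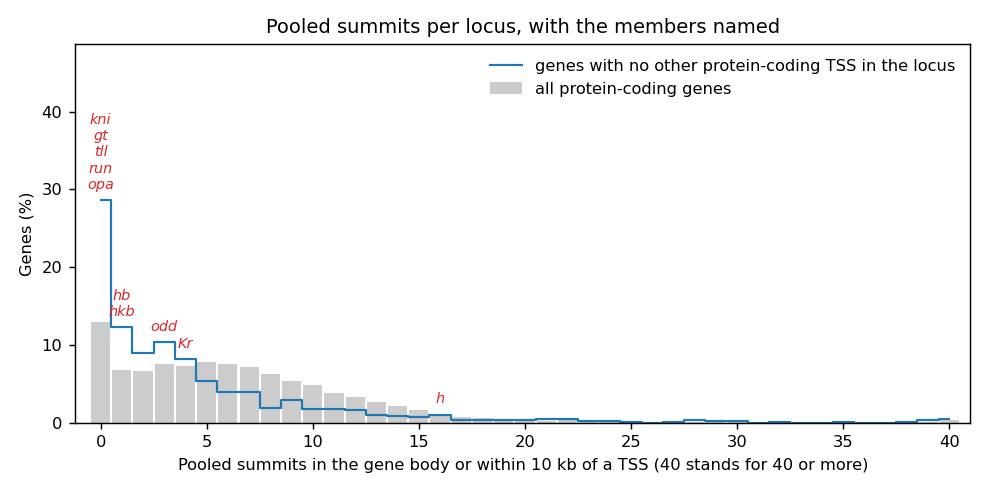
Share of genes (vertical axis, percent) by the number of pooled summits in the locus (horizontal axis), for all protein-coding genes (grey bars) and for genes with no other protein-coding TSS in the locus (blue line). The members, named in red above their count, stand at 0 to 4 summits except h at 16.

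Most of these genes are isolated, and that moves with the result. In 7 of the 10 loci (Kr, kni, tll, run, odd, opa and h) no other protein-coding gene had a TSS, and such loci made up 6.74% of all. The median number of other genes with a TSS in the locus was 0 for the members and 4 for all genes. Of the 7 isolated members, none had an IDR summit in the locus or within 1 kb of a TSS, 4 had no pooled summit, and the median was 0 pooled summits. Of the 942 protein-coding genes with no other TSS in the locus, 16.9% had an IDR summit in it, 9.98% had an IDR summit at most 1 kb from a TSS, 28.7% had no pooled summit, and the median was 2.5. The part of gene spacing in the counts was not tested.

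The nearest IDR summit lay 12.5 to 43.5 kb from a TSS of each member, with a median of 21.8 kb. The median was 6.76 kb for all protein-coding genes and 32.7 kb for the 942 isolated ones. All 10 members were farther from an IDR summit than the median gene, while the median of the 7 isolated members, 28.8 kb, was below that of isolated genes. For 7 of the 10, that nearest IDR summit was within 1 kb of the TSS of another gene. No share over all genes is given for this count, so it cannot be read as a trait of the members. Examples are the IDR summit 33 bp from the TSS of tko, a mitochondrial ribosomal protein gene, 15042 bp from gt, and the one 327 bp from the TSS of for, a cGMP-dependent protein kinase gene, 25725 bp from odd.

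**Figure D2:**
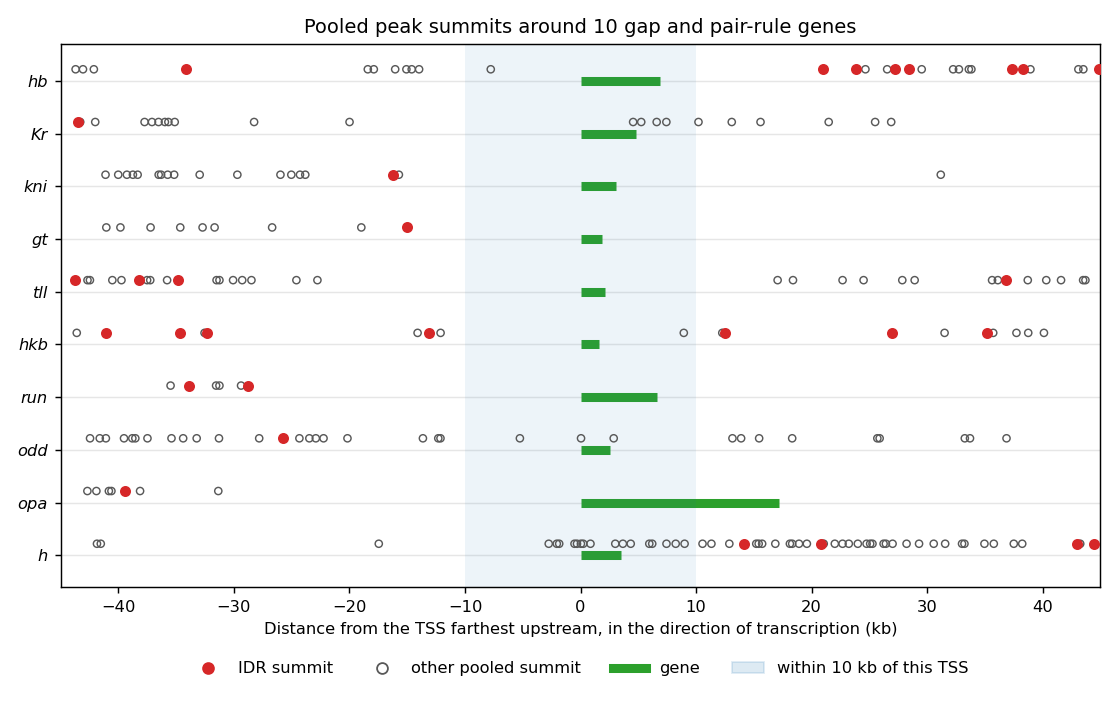
Pooled summits within 45 kb of each gene, by distance in kb from the TSS farthest upstream (horizontal axis, direction of transcription to the right), with IDR summits in red, other pooled summits as open circles and the gene as a green bar. The shaded band of 10 kb on either side holds no red point in any row, and it holds a cluster of circles in the row of h.

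hb encodes a zinc finger protein that patterns the anterior of the embryo and later serves as the first temporal factor of neuroblasts. The gene (3R, 8690980 to 8697822, minus strand) has 2 TSSs in the annotation. Its 1 pooled summit was intergenic, 7768 bp upstream of the more distal TSS (8705398 to 8705781), with a signal of 44.9 and rank 14901. An overlapping peak was in both replicates, with signal 14.5 and rank 29623 in replicate 1, and signal 30.7 and rank 12470 in replicate 3. The peak in replicate 1 was near the end of its list, and that in replicate 3 was above the median signal of its list, 26.5. Replicate 1 had a second summit in an intron of hb, 300 bp downstream of the other TSS, with signal 35.6 and rank 8583. No peak of replicate 3 or of the pooled list overlapped it.

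Kr encodes a zinc finger repressor of the trunk region. The gene (2R, 25226611 to 25231394, plus strand) lies within the span of CG9380, which is transcribed from the other strand, and no IDR summit lay between Kr and the distal end of the arm. Its 4 pooled summits were all downstream of the TSS, at 4554 bp in the 3' UTR of Kr and at 5255, 6593 and 7430 bp in an intron of CG9380. Their signals were 33.3, 26.2, 39.8 and 27.4, with ranks from 17169 to 27954, so all 4 were in the weaker part of the list. Replicate 1 had 5 summits in the locus, with signals from 17.0 to 31.4. Replicate 3 had none there, and its nearest summit was 13099 bp from the TSS.

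kni, which encodes a protein of the nuclear receptor family acting in the posterior trunk and later in tracheal branches (3L, 20692330 to 20695378, minus strand), had its nearest pooled summit 15724 bp from a TSS. Replicate 1 had 1 summit in the locus, 2724 bp upstream, with signal 24.9 and rank 14515, and replicate 3 had none. gt encodes a basic leucine zipper repressor (X, 2427113 to 2428967, minus strand). Neither replicate nor the pooled list had a summit in its locus. The nearest pooled summits on either side of its TSS were 80.0 kb apart. The median gap around the TSS farthest upstream was 6.89 kb for 13926 genes and 19.2 kb for isolated genes, of which gt is not one. A gap of 80.0 kb or longer was found for 4.40% of genes. Among the members, gaps ran from 0.34 kb at h and 5.29 kb at odd to 98.7 kb at run.

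The terminal gap genes tll and hkb act at the ends of the embryo under the receptor Torso. tll encodes an orphan nuclear receptor that is also used in brain and eye primordia (3R, 30852315 to 30854400, plus strand). It had no summit in any list within 10 kb, and its nearest pooled summit, 17064 bp away, had signal 31.9 and rank 22284. hkb encodes a zinc finger protein that sets the limits of the mesoderm and gut primordia (3R, 4345015 to 4346646, minus strand). Its 1 pooled summit, with signal 69.0 and rank 8648, was 8939 bp from the TSS of hkb and 33 bp from that of Skp2, a gene of a ubiquitin ligase subunit. It had a match of rank 14964 in replicate 3 and none in replicate 1. Counted by the nearest TSS, it belongs to Skp2.

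Among the pair-rule genes, run encodes the founding Runt domain protein (X, 20690670 to 20697321, plus strand). It lay in the longest gap of the 10, 98.7 kb between flanking pooled summits, and 2.82% of genes had a gap at least as long. That share is over all genes, while run is isolated, and isolated genes had a median gap of 19.2 kb. Both ends of the gap at run were IDR peaks. The nearer one, 28820 bp away, was 67 bp from the TSS of CG1835, with signal 170.0 and rank 2076. The 1 summit in the run locus was in replicate 1, 2716 bp upstream, with signal 23.9 and rank 15290. opa encodes a zinc finger protein of the Zic family that is also needed in the midgut (3R, 4852813 to 4869979, plus strand). Its nearest pooled summit was 31347 bp from the TSS, 34 bp from that of CG14657. A gap of 84.6 kb surrounded its TSS, and the 1 summit in its locus, in replicate 1, was 9512 bp upstream with signal 17.0 and rank 24313.

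odd encodes a zinc finger repressor of the odd-skipped family (2L, 3604224 to 3606756, minus strand). Each of its 3 pooled peaks overlapped a peak in both replicate lists. The strongest was intergenic, 5247 bp upstream of the TSS (3611811 to 3612194), with pooled signal 87.7 and rank 6179. In replicate 1 it had signal 37.2 and rank 7966, and in replicate 3 signal 53.2 and rank 5763, with its summit at the same base as in the pooled list. A second summit lay 45 bp downstream of the TSS, in the 5' UTR, with pooled signal 42.8 and rank 15754. The overlapping peaks ranked 12324 in replicate 1 and 18638 in replicate 3, with summits 12 and 210 bp away. The third, 2873 bp downstream of the TSS and past the end of the gene, had signal 57.6 and rank 10889. Its overlapping peaks had summits 85 bp away in replicate 1 and 141 bp away in replicate 3. The upstream peak was therefore the stronger one in the pooled list and in both replicates, and the promoter peak was near the middle of each list.

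h encodes a basic helix-loop-helix repressor that is used again in the patterning of bristles and imaginal discs (3L, 8675759 to 8679253, plus strand). Its 2 TSSs are 196 bp apart. The 16 pooled summits in the locus had signals from 31.0 to 111, with a median of 56.5. For 13 of the 16 the peak overlapped a peak in both replicates by at least 1 bp. These are not 13 separate matches, since some replicate peaks served more than 1 pooled summit. The replicate 1 peak of rank 16797, for example, had its summit 1 bp from one and 255 bp from another. Of the 16 pooled summits, 5 lay within 1 kb of a TSS. The strongest was in the 5' UTR, 35 bp downstream of the first TSS (8675602 to 8675985), with signal 110.6. It ranked 4369, which is 92 places below the last IDR peak, and its signal was 98.9% of the lowest IDR signal, 111.8.

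The replicates placed their strongest h peak at different positions. In replicate 1 it was 304 bp upstream of the first TSS, with signal 65.9 and rank 3108. In replicate 3 it was 107 bp downstream of that TSS, with signal 94.9 and rank 2120. These summits were 411 bp apart and the peaks did not overlap, although each was among the 4277 strongest of its list. Replicate 1 did have weaker summits beside the replicate 3 position, one of signal 34.6 and rank 8939 and one of signal 20.9 and rank 18444. Replicate 3 likewise had a weaker peak that overlapped the strongest one of replicate 1, with signal 44.3 and rank 7585 and its summit 565 bp upstream of the first TSS. Judged by the 4277 strongest peaks of either replicate alone, h was the 1 member of 10 with such a peak in its locus. The share of all protein-coding genes was 58.3% with replicate 1 and 58.9% with replicate 3. Of the 942 isolated genes, 155 had such a peak with replicate 1 and 170 with replicate 3. Of the 7 isolated members it was 1 with either replicate.

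**Figure D3:**
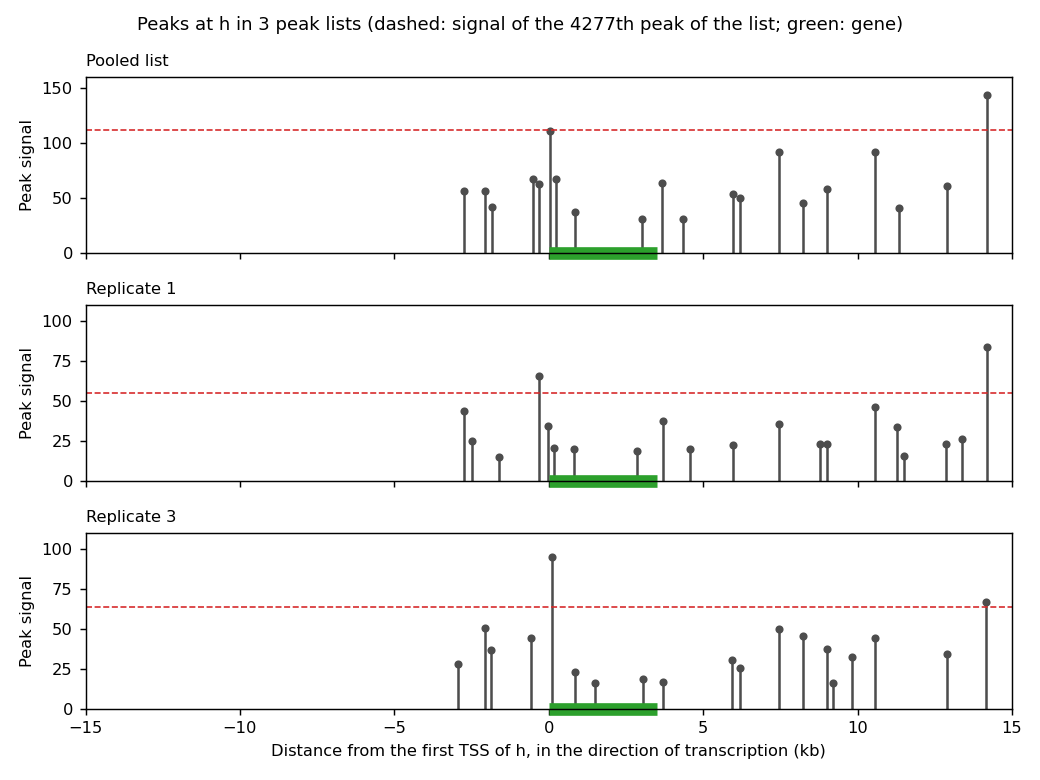
Peak signal (vertical axis, caller's units) by distance in kb from the first TSS of h (horizontal axis) in the pooled list and in replicates 1 and 3, with the signal of the 4277th peak of each list as a dashed line and the gene in green. The pooled peak at the TSS ends just under the line, 1 peak near the TSS passes it in each replicate, and the summits are mostly to the right.

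The h summits were spread mainly to one side. Within 40 kb of the first TSS, 45 pooled summits lay downstream and 6 upstream. Replicate 1 had 45 downstream and 6 upstream, and replicate 3 had 45 and 9. No pooled summit lay between 2751 bp and 17.46 kb upstream. As background, the regulatory elements known to drive the blastoderm stripes of h lie on the upstream side of the gene. The 2 IDR summits on the downstream side were intergenic. The first lay 14.2 kb downstream of the first TSS (8689759 to 8690142), with signal 144 and rank 2830, and it ranked 1948 in replicate 1 and 3986 in replicate 3. The second lay 20.9 kb downstream (8696532 to 8696642), with signal 141 and rank 2922, and ranked 3217 and 3038 in replicates 1 and 3. Both had a TSS of h as their nearest protein-coding TSS, and both are outside the 10 kb used here.

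The loci differed in how far the replicates shared peaks. Of the 25 pooled summits, 21 had an overlapping peak in replicate 1, 20 in replicate 3 and 17 in both, which is 68.0% against 67.1% of the whole pooled list. Its 95% exact Clopper-Pearson interval, 46.5 to 85.1%, covers counting error only and takes the peaks as independent, which the overlapping peaks at h are not. Outside h it was 4 of 9. The 10 loci held 29 summits of replicate 1 and 23 of replicate 3. Replicate 1 had none in 3 of the 10 loci and replicate 3 none in 6 of the 10. Of all protein-coding genes, 9.49% and 11.5% had none in replicates 1 and 3. Of the 942 isolated genes, 185 and 278 had none in replicates 1 and 3, against 1 and 5 of the 7 isolated members. The 4 genes Kr, kni, run and opa had summits in replicate 1 and none in replicate 3, and hkb was the reverse case. gt and tll had none in either. No share over all genes is given for loci with summits in 1 replicate only. These counts therefore cannot be read as a trait of the members. A pooled summit within 1 kb of a TSS was found for 2 of 10 members, odd and h, and for 57.3% of all protein-coding genes. Both are among the 7 isolated members, and 371 of the 942 isolated genes had one.

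The peaks that do lie in these loci were near the middle of the pooled list. Their median signal was 53.8, against 44.6 for the pooled list and 168 for the IDR list, and 16 of the 25 were above the pooled median. Because h held 16 of the 25 peaks, the values and counts here mainly describe h. Outside h the signals ran from 26.2 at Kr to 87.7 at odd, and all those at Kr were below the pooled median. By position, 16 were intergenic, 4 intronic, 3 in a 5' UTR and 2 in a 3' UTR. For 23 of the 25 the nearest protein-coding TSS was the member's own. The exceptions were the hb peak, 7343 bp from CG8112, and the hkb peak at Skp2. No share over the pooled list is given for the positions or the nearest TSS, so these counts are descriptions only.

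The counts at the members and at all genes were also taken at other distances. Within 5 kb of a TSS, 3 of 10 members had a pooled summit, against 76.4% of all genes. Within 20 kb it was 8 of 10 and 95.1%, and within 50 kb it was 10 of 10 and 98.8%. The median pooled count was 0 within 5 kb, 4 within 20 kb and 23.5 within 50 kb for the members, and 3, 11 and 27 for all genes. IDR summits appeared within 20 kb for 5 of 10 members (hb, kni, gt, hkb and h) and for 72.6% of all genes, and within 50 kb for 10 of 10 and 88.3%. Among the 7 isolated members, 2 had an IDR summit in a locus widened to 20 kb, which is 28.6%, against 32.4% of isolated genes. A pooled summit was there for 5 of these 7 (71.4%), against 85.5% of isolated genes, with medians of 2 and 5 summits. At 50 kb, hb, hkb and h passed the median of all genes, with 9, 8 and 5 IDR summits against 4, while run had 7 pooled summits against 27. Within 100 kb the members' medians were 43 pooled and 5 IDR summits, against 53 and 8 for all genes, and 8 of the 10 members were below the IDR median.

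**Figure D4:**
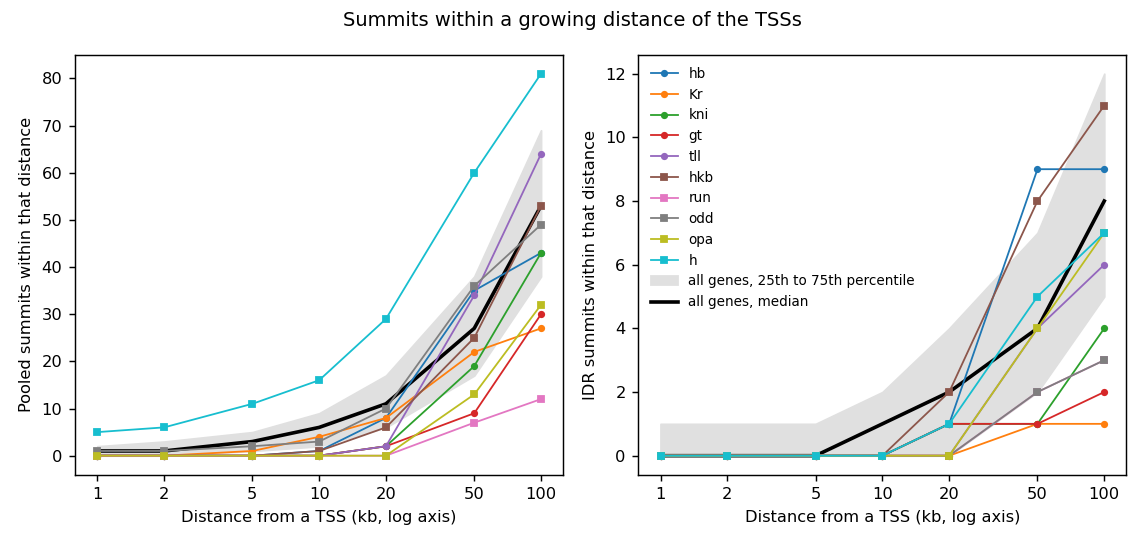
Pooled summits (left) and IDR summits (right) within a growing distance of the TSSs (horizontal axis, kb, log scale) for each member, with the median and the 25th to 75th percentile of all protein-coding genes in black and grey. All members except h run at or below the median of pooled summits out to 20 kb, and no member has an IDR summit within 10 kb.

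To show what the promoters with and without a peak look like, the 150 bases before the TSS farthest upstream are given for h and odd, which had a pooled summit within 1 kb, and for gt and tll, which had none in any list within 10 kb. The sequences are from the RefSeq copy of the dm6 assembly (Release 6), 5' to 3' on the strand of the gene. Capitals mark matches, on either strand, to any of 9 sites of 6 bases. Homeodomain-type sites were TAATTG for Bar proteins, with TAAACG as a variant, TAATTA as the general core and TAATTT as a relaxed form. The sites of promoter and boundary factors were TATCGA for DREF and BEAF-32, then GGTCAC for M1BP and GAGAGA for GAGA factor. The repeat CACACA was added, and so was CAGGTA for Zelda, the activator of the early zygotic genome. All of the homeodomain-type sites but TAAACG share their first 5 letters, and matches on opposite strands can overlap.
h promoter (chr3L:8675609-8675758, plus strand): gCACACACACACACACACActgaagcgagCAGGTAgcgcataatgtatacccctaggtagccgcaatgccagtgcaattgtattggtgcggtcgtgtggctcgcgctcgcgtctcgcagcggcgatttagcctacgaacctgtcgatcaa
odd promoter (chr2L:3606757-3606906, minus strand): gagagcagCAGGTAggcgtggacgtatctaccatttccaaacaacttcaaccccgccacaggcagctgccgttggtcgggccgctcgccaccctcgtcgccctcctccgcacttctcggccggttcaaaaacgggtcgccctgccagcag
gt promoter (chrX:2428968-2429117, minus strand): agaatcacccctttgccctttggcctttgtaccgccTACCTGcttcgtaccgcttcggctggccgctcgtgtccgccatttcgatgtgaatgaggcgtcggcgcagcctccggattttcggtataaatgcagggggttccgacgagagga
tll promoter (chr3R:30852165-30852314, plus strand): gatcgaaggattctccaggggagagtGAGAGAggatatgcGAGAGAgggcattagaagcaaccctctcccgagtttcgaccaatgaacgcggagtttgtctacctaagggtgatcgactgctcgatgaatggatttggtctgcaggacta

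No promoter of the 10 held any of the 4 homeodomain-type sites in these 150 bases, nor TATCGA or GGTCAC. Over 13968 promoters of the same length, TAATTG was in 13.2%, TAAACG in 7.11%, TAATTA in 10.9%, TAATTT in 26.7%, TATCGA in 2797 of the 13968 and GGTCAC in 7.28%. CAGGTA was in 3 of the 10 (gt, odd and h) and in 3.36% of all promoters, CACACA in 3 (Kr, hkb and h) and 9.99%, and GAGAGA in 2 (tll and run) and 7.5%. The promoter of odd, which had a peak, and that of gt, which had none, both held CAGGTA. Base composition moves with these counts: the members' promoters had 44.0 to 64.0% GC, median 55.3%, against a median of 38.7% for all, and all 10 were above that median. Its part was not tested.

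Windows of 101 bases around summits are given next, to show the sequence at the peaks themselves. They are the strongest odd peak, the only hb peak, and 3 peaks of h: the 1 window of 25 with TAATTG, the 1 with TAATTA, and the strongest peak of h outside its promoter. The numbers in the names are bases upstream or downstream of the nearest TSS of the gene, and the capitals mark the same 9 sites.
odd, 5247 upstream (chr2L:3611953-3612053, minus strand): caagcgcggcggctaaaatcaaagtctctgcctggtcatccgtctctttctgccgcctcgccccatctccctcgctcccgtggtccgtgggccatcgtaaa
hb, 7768 upstream (chr3R:8705540-8705640, minus strand): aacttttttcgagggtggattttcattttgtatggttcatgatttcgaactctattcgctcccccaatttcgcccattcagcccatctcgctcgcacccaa
h, 1845 upstream (chr3L:8673864-8673964, plus strand): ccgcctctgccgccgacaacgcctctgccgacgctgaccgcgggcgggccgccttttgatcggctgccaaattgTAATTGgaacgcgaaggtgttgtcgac
h, 3471 downstream (chr3L:8679376-8679476, plus strand): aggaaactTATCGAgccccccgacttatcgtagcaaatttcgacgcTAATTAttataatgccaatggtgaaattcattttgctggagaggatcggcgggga
h, 7245 downstream (chr3L:8683150-8683250, plus strand): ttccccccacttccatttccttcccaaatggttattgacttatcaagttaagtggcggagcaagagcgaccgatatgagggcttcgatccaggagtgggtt

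TAATTG was within 50 bp of 1 of the 25 summits (4.0%), against 8.70% of all pooled summits and 8.65% of IDR summits. TAATTA was at 1 of 25 against 6.20% of pooled summits, TAATTT at 2 against 15.6%, and TAAACG at 0 against 4.76%. TATCGA was at 2 of 25, the h window shown and the hkb window at the Skp2 promoter, against 6.23%. The strongest peak of odd and the h peak 7245 bp downstream (signal 91.5, rank 5792), held none of the 9 sites. The windows at the members' peaks had a median GC of 48.5%, against 41.6% for the pooled list, and the part of this in the site counts was not tested. A single window more or fewer is 4.0% of the 25.

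Related genes, 39 in 5 lists, are given for comparison. The lists mix other segmentation genes with paralogues of members and neuroblast temporal factors, so the shares are those of a mixed set. An IDR summit was in the locus of 17 of 39 (43.6%), against 57.9% of all protein-coding genes, and at most 1 kb from a TSS in 7 of 39 (17.9%), against 26.9%. The median was 5 pooled summits per locus, against 6, and 8 of 39 (20.5%) had none, against 13.0%. These shares were below those of all genes for IDR summits and above for loci with no pooled summit, and no test was made. They mix isolated and other genes. Of the isolated related genes, cad, slp1, slp2, ftz-f1, hh, ptc, wg and ci had an IDR summit in the locus. The others, zld, ems, knrl, oc, ftz, inv, en, mid and cas, had none. Among all isolated genes the share with an IDR summit was 16.9%. Of 6 maternal and terminal regulators, 3 had an IDR summit in the locus: osk, trk and the posterior homeobox gene cad, which alone of these had one within 1 kb. The strongest at osk was 35 bp from the TSS of CG11964, and the 1 at trk was 48 bp from that of Utx. Of 9 other gap and head gap genes, 5 had an IDR summit: btd, cnc, nub, slp1 and slp2. Here slp1 and slp2 shared 1 summit, 4336 bp from the TSS of slp2. The strongest at btd (signal 489, rank 226) was nearest to the TSS of nej, the gene of a histone acetyltransferase. Of 13 other pair-rule and paralogous genes, 5 had an IDR summit: ftz-f1 (signal 374, rank 424), bowl, eg (50 bp from the TSS of eIF2A), slp1 and slp2. Chosen for naming after their values were seen, eve, ftz and prd, the pair-rule genes with homeobox products, had none, and ftz and prd had no pooled summit.

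Of 11 segment polarity genes, which act after the pair-rule genes to set the borders of each segment, 6 had an IDR summit in the locus: nkd, ci, ptc, wg, arm and hh. At wg, the gene of a Wnt ligand, it lay 203 bp from the TSS (signal 148, rank 2695), and at ci, the gene of the transcription factor of the Hedgehog pathway, 146 bp from it (signal 220, rank 1255). The strongest at arm was 23 bp from the TSS of Ldaf1. The other 5 genes had no IDR summit, among them en, whose 3 pooled summits were at most of signal 37.6. Of 6 neuroblast temporal factors, a list that includes hb and Kr, 1 had an IDR summit, nub. pdm2 and cas had no pooled summit, and grh had 17 of which none was an IDR peak. Paralogues of members, also named after their values were seen, differed among themselves: bowl, of the odd-skipped family, had 4 IDR summits, while its relatives sob and drm had 5 pooled summits each and no IDR summit, and knrl, the relative of kni, had 7 pooled summits, the strongest 7 bp from its TSS (signal 89.8, rank 5945).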

How the data were processed

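The series holds ChIP-seq peak lists from 1 group, whole B-H2-GFP embryos, with replicates 1 and 3. Per the deposited file descriptions, the authors made permissive peak lists on dm6 for each replicate and for the pooled alignments, with 1 shared control alignment, and derived the optimal IDR list from these. Per the labels, sonicated fragments spanned 200 to 800 bp. For the caller and the IDR threshold, nothing is given in the sources used here. The deposited signal (never negative) was used for ranks within a list. The deposited −log10 q-value saturates at 4.09 in the pooled list and was not used. The deposited summit offset placed each summit, and the columns for a score and a p-value hold 1 constant each.

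Summits were counted per locus with Ensembl release 115 gene models and, for sequence, the RefSeq copy of the same assembly, using Python 3.11.15, numpy 2.4.6, pandas 2.3.3, scipy 1.17.1 and matplotlib 3.10.9. Replicate matches required an overlap of 1 bp. The site search took both strands and reached 50 bp to each side of a summit. Counting was checked on summits planted at 200 genes. The members, lists and named genes were chosen with earlier results of these data known: all 10 members are named whatever their values, with the genes nearest to their strongest or IDR summits and leading genes of 5 related lists. The list symbol nos matched no single gene and was not used. Values are descriptions, with no test. Alternatives covered the locus reach, gene body, TSS window, nearest TSS, merging, stricter peaks, single replicates, overlap rule and site window.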

Additional observations from a re-analysis of the deposited data

How the results depend on the processing

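The count of 0 members with an IDR summit in the locus, and of 0 IDR summits there, held with a reach of 5 kb, without the gene body, with summits nearest to the member only, with merged peaks and with the 2138 IDR peaks of highest signal. It became 5 members and 6 summits with a reach of 20 kb. With the 4277 strongest peaks of 1 replicate it became 1 member and 1 summit either way, at h, also within 1 kb of a TSS. TSS windows of 500 bp and 2 kb left the latter count at 0. The 25 pooled summits became 14 with a reach of 5 kb and 67 with 20 kb, and ranged from 23 to 29 in single replicates. With overlapping peaks merged they became 20, of which 11 were at h. The share of pooled summits that are IDR peaks became 8.96% with a reach of 20 kb and 3.45 to 4.35% in single replicates. The share with a peak in both replicates, 68.0%, fell to 48.0% (55.7% of the whole list) with an overlap of 50% of the shorter peak, and to 28.0% (44.6% of the whole list) with summits at most 100 bp apart. The windows with TAATTG numbered 2 within 100 bp of the summit and 6 in the whole peak. Without h, an alternative chosen after seeing the data, there were 9 pooled summits, 44.4% of them in both replicates, and 0 with TAATTG. Values at other reaches and windows differ by construction, and the cause of the other changes was not tested. No paired analysis was possible because the study has 1 group. Depth is unknown, and the lists end at a fixed number of peaks, so a locus without a summit may still hold signal below the end of the list.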
